A study of Rattus norvegicus with 484 samples.

Results

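Bezafibrate and rosiglitazone, given to rats, were compared directly in 2 skeletal muscles, the soleus and the muscle that the labels call quad. The comparison used 75 of the 484 arrays of the series: 20 bezafibrate and 20 rosiglitazone arrays in soleus, and 19 and 16 in quad. All arrays of these muscles with bezafibrate at 250 mkd or rosiglitazone at 100 mkd, the dose unit as the labels write it, on days 2 to 6 were taken, except 1 quad array of bezafibrate (rat 1256, day 2), which the selection rule left out. Soleus had 4 arrays per compound and day. Quad had 4, except for 3 bezafibrate arrays on day 2 and 2 rosiglitazone arrays each on days 2 and 6. Each array set 1 rat against pooled vehicle RNA from that muscle on that day, so on a given day both compounds were read against the same pool. Vehicle arrays did not enter the test. Levels of single vehicle rats (35 soleus and 63 quad arrays) are given only to show where each compound lay. Strain, sex and age are not given in the sources used here, and nothing in the labels separates the effect of compound from that of dose.

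Both compounds act on PPARs, nuclear receptors that bind fatty acids and, with a retinoid X receptor partner, bind direct repeats of a hexamer upstream of genes of lipid metabolism. PPARA, abundant in liver, heart and slow muscle, drives fatty acid oxidation. PPARG is the receptor of adipocyte differentiation and lipid storage, and is also found in endothelial cells. PPARD is the most widely expressed form in muscle. Bezafibrate, a lipid-lowering fibrate, is known to activate all of these receptors. Rosiglitazone, a thiazolidinedione insulin sensitiser, is selective for PPARG. The question put to the data was which genes separate the fibrate from the PPARG agonist.

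Values are log2 ratios of a rat to its vehicle pool, called levels here. A difference is bezafibrate minus rosiglitazone, taken within each day and averaged over days 2 to 6 with equal weight, with its standard error (SE). A gene was called where the limma p-value adjusted by Benjamini-Hochberg over all features fell under 0.05. In soleus, rosiglitazone rat 1365 correlated at a mean of -0.160 with the others of its compound and day. By the same measure the soleus arrays of day 4 had 0.731 to 0.853, and those of the other days -0.160 to 0.333. Lowest, median and highest levels and counts of arrays pool the days. They can therefore carry what the arrays of a day share, which was not tested. Rosiglitazone rat 1382 had 2.135 times the median spread of the muscle's arrays, and rats 1365, 1379 and 1380 of the same compound had 1.303 to 1.459 times. In quad, bezafibrate rat 1272 had 1.556 times, and the 4 rosiglitazone arrays of day 3, which carry a number from 1 to 4 and no rat number, had 1.319 to 1.74 times. Nothing in the labels says that these came from separate rats. Since every array was read against a pool of its own muscle, the ratios could not show whether a sample carried the markers of its muscle. In whole muscle, fewer cells of a type and less RNA per cell cannot be told apart.

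In soleus 215 of 18385 features were called, 1.17%, of which 87 were higher with bezafibrate (0.473%) and 128 lower (0.696%). In quad 1331 of 18414 were called, 7.23%, of which 597 were higher (3.24%) and 734 lower (3.99%). The quad count depended on single days and arrays: 602 were called without day 3 (463 of them among the 1331), 750 without day 4 and 507 without day 5. Without 1 array it ran from 638 (rosiglitazone rat 1383) to 2027 (rosiglitazone array 1 of day 3), with 832 without rosiglitazone rat 1367. The soleus count was 134 without day 4 and 102 without day 5. Of the features tested in both muscles, 130 were called in both, which was 61.0% of the soleus calls and 9.78% of the quad calls. All 130 had the same direction in both muscles, 35 higher and 95 lower with bezafibrate. At least 31 rats gave arrays of both muscles. Among named genes the largest differences below 0 in quad were those of the lipid genes Rbp7, Fabp5 and Gpihbp1, which were also among the 4 largest in soleus, and whose mean levels lay above vehicle with rosiglitazone.

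**Figure D1:**
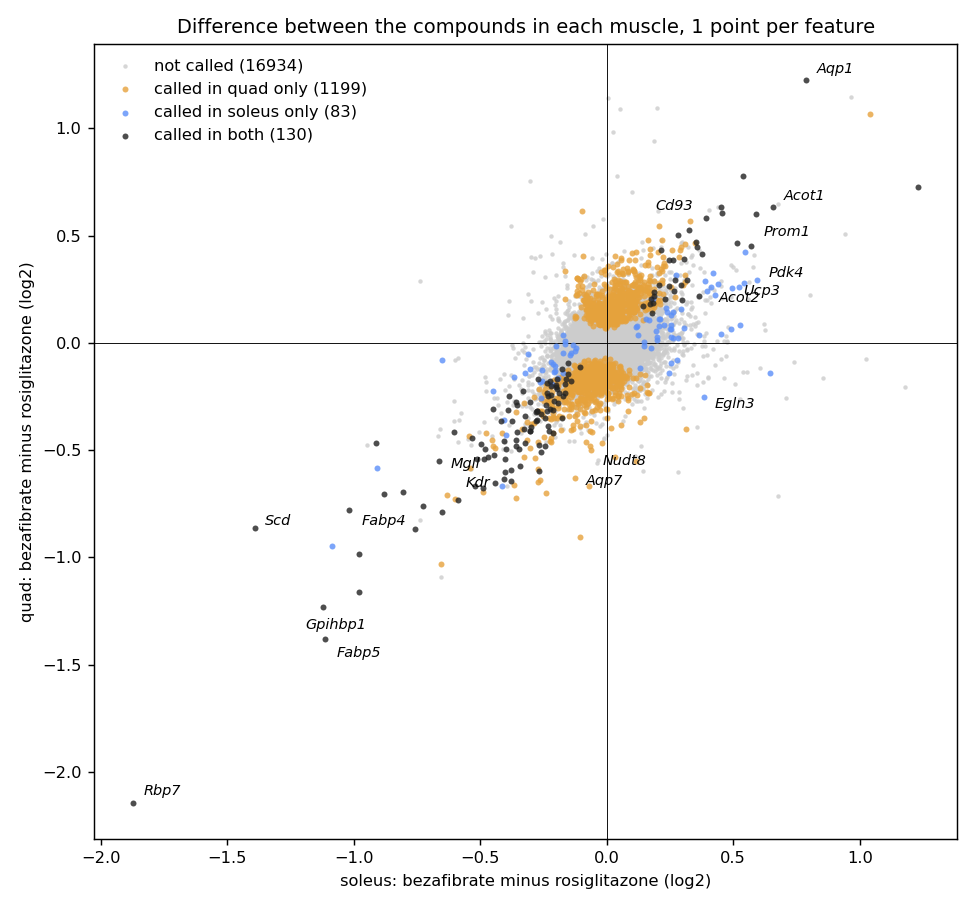
Difference between the compounds (bezafibrate minus rosiglitazone, log2) in soleus on the horizontal axis and in quad on the vertical axis, 1 point per feature tested in both muscles, coloured by where it was called. Rbp7, Gpihbp1, Fabp5, Fabp4 and Mgll lie at the lower left and Aqp1 at the upper right, and the 130 features called in both lie towards the lower left and the upper right.

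The gene that separated the compounds most was Rbp7, which encodes a cytosolic retinol-binding protein of the fatty acid binding protein family and is a known PPARG target. Ucp3, a mitochondrial carrier of muscle and a classical fibrate-responsive gene, was called higher with bezafibrate in soleus and was not called in quad. Their upstream windows are shown because PPAR response elements are usually sought there. Both are the 250 bases upstream of the annotated start in RefSeq's GRCr8, read on the gene's strand. Rbp7 is at chr5:165177400-165177649 (minus strand) and Ucp3 at chr1:164227660-164227909 (plus strand). The capitals mark a stretch that comes closest to the hexamer AGGTCA repeated in the same direction after 1 base of any kind, searched on both strands over its 12 fixed letters.
Rbp7: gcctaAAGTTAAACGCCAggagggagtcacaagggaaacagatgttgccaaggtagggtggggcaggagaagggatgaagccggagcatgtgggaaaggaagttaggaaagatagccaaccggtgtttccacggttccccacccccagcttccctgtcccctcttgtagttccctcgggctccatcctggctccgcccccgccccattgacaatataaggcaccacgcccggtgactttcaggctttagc
Ucp3: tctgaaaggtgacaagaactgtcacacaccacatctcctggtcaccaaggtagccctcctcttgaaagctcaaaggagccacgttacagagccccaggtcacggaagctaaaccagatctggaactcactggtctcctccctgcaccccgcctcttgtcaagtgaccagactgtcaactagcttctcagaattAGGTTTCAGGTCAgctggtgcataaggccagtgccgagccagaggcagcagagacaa
The exact repeat was in 0.0508% of the 33469 promoter windows of this length. The closest stretch in the Ucp3 window had 2 mismatches and began 57 bases upstream of the start, and 3.15% of all windows held one as close. In the Rbp7 window the closest had 4 mismatches, as few as in 74.5% of all windows, so nothing in these letters set it apart. A match of letters is a description of the window, not of binding. Both genes were picked for this after their values had been seen.

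The first group was 20 measured genes of PPARG-responsive lipid handling. With bezafibrate none was called higher in either muscle. In soleus 5 of 19 tested were called lower (Rbp7, Gpihbp1, Fabp5, Fabp4 and Plin2), and the median difference of the group was -0.14. In quad 7 of 20 were lower, the same 5 with Aqp7 and Lipe, with a median of -0.21. Over all features the median difference was 0.00 in both muscles, and 1.17% were called in soleus and 7.23% in quad. The list counts below are to be read against these shares. The mean level of the group ran from -0.06 to 0.51 over the 20 soleus bezafibrate arrays and from 0.33 to 0.92 over the 20 rosiglitazone arrays. These are values of a list chosen with earlier results of the series known.

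Rbp7 in soleus had a lowest, median and highest level of -0.35, 1.45 and 2.51 with bezafibrate and of 2.85, 3.43 and 3.92 with rosiglitazone. In quad the same 3 values for Rbp7 were 0.18, 1.55 and 2.65 with bezafibrate and 2.71, 3.52 and 4.10 with rosiglitazone. The groups did not overlap in either muscle, and all rosiglitazone arrays also lay above all vehicle arrays, as did 8 of 20 bezafibrate arrays in soleus and 9 of 19 in quad. The difference was -1.87 ± 0.12 in soleus (adjusted p = 2.18e-12, 3.66-fold lower with bezafibrate) and -2.14 ± 0.16 in quad (adjusted p = 3.73e-10, 4.42-fold lower). By day it was widest on day 2 in both muscles, at -2.81 in soleus and -2.69 in quad, and it was -0.88 in soleus on day 5 and -1.36 in quad on day 4. Rbp7 thus lay high with both compounds, and higher with rosiglitazone.

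Gpihbp1 encodes the protein that carries lipoprotein lipase to the luminal face of capillary endothelium. Its soleus levels were -0.17, 0.56 and 1.03 (lowest, median, highest) with bezafibrate and 0.75, 1.61 and 2.12 with rosiglitazone. In quad Gpihbp1 ran from -0.08 over 0.46 to 1.00 with bezafibrate and from 1.18 over 1.68 to 2.16 with rosiglitazone. The groups did not overlap in quad, and in soleus 19 of 20 rosiglitazone arrays lay above every bezafibrate array. The difference was -1.12 ± 0.06 in soleus (adjusted p = 5.13e-14) and -1.23 ± 0.08 in quad (adjusted p = 1.8e-11). It lay between -0.91 and -1.31 on every soleus day and between -1.03 and -1.43 on every quad day.

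Fabp5 and Fabp4 encode fatty acid carriers of the cytosol found in adipocytes, macrophages and capillary endothelium. Fabp5 in soleus lay at -0.92, 0.29 and 0.93 with bezafibrate and at 0.39, 1.30 and 1.84 with rosiglitazone. The quad levels of Fabp5 were -0.66, 0.12 and 1.02, against 0.60, 1.55 and 2.53. Its median with bezafibrate was nearer to that of vehicle (-0.02 in soleus, -0.03 in quad) than to that of rosiglitazone, though above vehicle, more so in soleus. The ranges of the compounds overlapped in both muscles. The difference was -1.11 ± 0.11 in soleus (adjusted p = 7.08e-08) and -1.38 ± 0.13 in quad (adjusted p = 2.06e-08). By day it was -1.94 on day 6 and -0.59 on day 3 in soleus. In quad it was -2.39 and -0.75 on the same days, with 2 rosiglitazone arrays on day 6.

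Fabp4 in soleus lay at -0.11, 0.51 and 1.09 with bezafibrate and at 0.74, 1.31 and 1.83 with rosiglitazone. In quad the Fabp4 levels were -0.15, 0.50 and 1.02, against 0.80, 1.38 and 1.72. All 20 soleus rosiglitazone arrays lay above all vehicle arrays for this gene, and 14 of 16 quad rosiglitazone arrays lay above every bezafibrate array. The difference was -0.76 ± 0.07 in soleus (adjusted p = 2.06e-08) and -0.87 ± 0.08 in quad (adjusted p = 6.25e-08), and it was below 0 on each of the 5 days in both muscles.

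Mgll encodes monoglyceride lipase, which frees the last fatty acid of a triglyceride. In soleus Mgll ran from -0.06 over 0.42 to 0.80 with bezafibrate and from 0.74 over 0.98 to 1.52 with rosiglitazone. The quad values of Mgll were -0.06, 0.31 and 0.56, against 0.35, 0.85 and 1.16. In soleus 18 of 20 rosiglitazone arrays stood above every bezafibrate array. The difference was -0.66 ± 0.06 in soleus (adjusted p = 1.28e-08) and -0.55 ± 0.06 in quad (adjusted p = 2.02e-07). Plin2, which coats lipid droplets, was also lower in both muscles (-0.35 ± 0.07 and -0.50 ± 0.06).

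**Figure D2:**
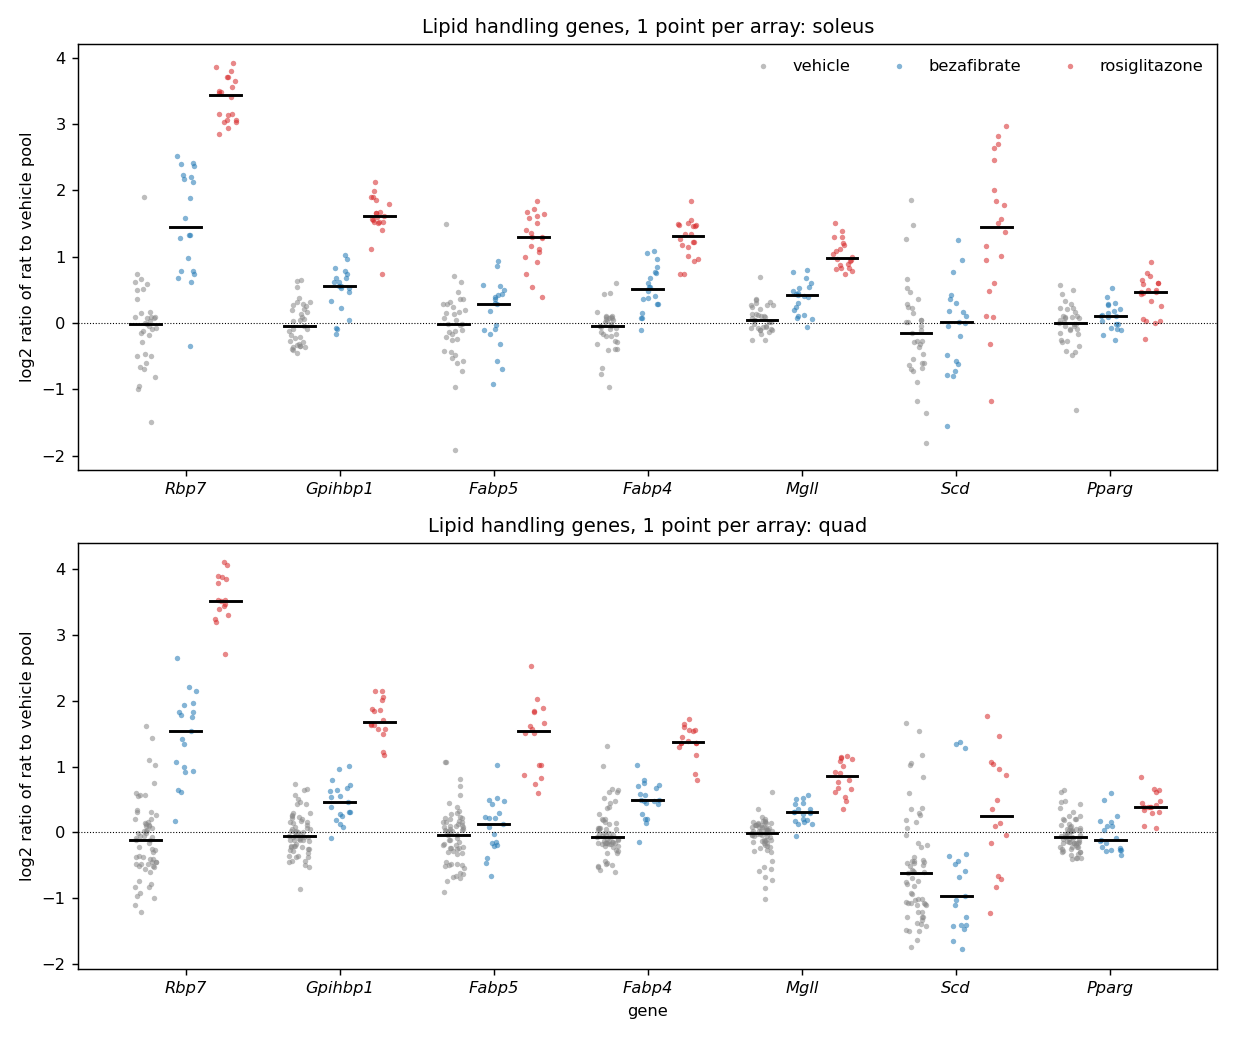
Levels (log2 ratio of a rat to the vehicle pool) of 7 lipid handling genes in soleus (top) and quad (bottom), 1 point per array, with the median as a bar, for vehicle (grey), bezafibrate (blue) and rosiglitazone (red). For Rbp7 the compounds do not overlap in either muscle, with rosiglitazone arrays from 2.71 upward, while for Scd and Pparg the groups overlap.

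Aqp7, a glycerol channel of adipocytes and capillaries, was called in quad and not in soleus. In quad its levels were -0.52, -0.01 and 0.55 with bezafibrate and -0.06, 0.85 and 1.14 with rosiglitazone. In soleus they were -0.33, 0.26 and 0.71, against -0.07, 0.34 and 0.87. The quad groups overlapped, though 13 of 16 rosiglitazone arrays lay above every bezafibrate array. The difference was -0.63 ± 0.09 in quad (adjusted p = 4.29e-05) and -0.13 ± 0.07 in soleus (adjusted p = 0.594), and the test of the muscles against each other gave 0.50 ± 0.12 (adjusted p = 0.0519). With the rat as a random block that test gave 0.51 ± 0.11 (adjusted p = 0.0153), and it passed in 28 of its 93 alternatives. It did not pass within the 27 rats with both muscles on days 2, 4, 5 and 6. There it gave 0.50 ± 0.11 with the rat as a block (adjusted p = 0.108) and 0.50 ± 0.12 without the block (adjusted p = 0.299). Hormone-sensitive lipase (Lipe) was lower in quad at -0.29 ± 0.07 (adjusted p = 0.0161), and had -0.19 ± 0.07 in soleus (adjusted p = 0.234).

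The 9 measured adipocyte markers were set beside these genes, since fat between muscle fibres would carry several of them. Among them 1 was called in soleus, Thrsp, and 2 in quad, Aqp7 and Lipe, all lower with bezafibrate, with a median difference of -0.13 in soleus and -0.21 in quad. The mean level of the marker list ranged from -0.38 to 0.42 over soleus bezafibrate arrays and from -0.36 to 0.89 over rosiglitazone arrays. In quad the ranges were -0.45 to 0.72 and -0.43 to 0.86. The part of adipocyte RNA in the lipid handling genes was not tested. None of the 19 macrophage and leukocyte markers was called in either muscle, against 1.17% of all features in soleus and 7.23% in quad.

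Pparg itself was lower with bezafibrate in both muscles. Its soleus levels were -0.25, 0.11 and 0.53 with bezafibrate and -0.24, 0.47 and 0.93 with rosiglitazone. In quad Pparg had -0.34, -0.11 and 0.60, against 0.07, 0.39 and 0.84. The groups overlapped, and the median with bezafibrate lay near vehicle (-0.01 in soleus, -0.07 in quad). The difference was -0.30 ± 0.07 in soleus (adjusted p = 0.0125) and -0.41 ± 0.07 in quad (adjusted p = 0.000319). In soleus the call was lost when day 2, 4, 5 or 6 was left out. The 3 Pparg probes ran from -0.47 to -0.05 in soleus and from -0.64 to -0.01 in quad.

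The other PPAR genes showed small differences. Ppara differed by 0.03 ± 0.08 in soleus (95% interval -0.12 to 0.19) and by 0.01 ± 0.05 in quad (-0.10 to 0.12), and its probes disagreed in sign. Ppard differed by 0.07 ± 0.03 and 0.02 ± 0.03. Among the 19 measured nuclear receptors and coactivators, 3 were called higher and 1 lower in soleus, and 1 higher and 3 lower in quad. Of all features, 1.17% were called in soleus and 7.23% in quad. Nr1h3, the oxysterol receptor LXR alpha, was lower in quad at -0.25 ± 0.05 (adjusted p = 0.00467) and had -0.23 ± 0.06 in soleus (adjusted p = 0.0755). Esrra, a partner of the coactivator PGC-1 alpha in mitochondrial gene expression, was higher in quad at 0.21 ± 0.05, and Esrrg in soleus at 0.12 ± 0.03. Ppargc1a, which encodes that coactivator, had 0.60 ± 0.17 in soleus (adjusted p = 0.0888) and -0.12 ± 0.07 in quad. Med1, a Mediator subunit that nuclear receptors contact, was lower in quad at -0.13 ± 0.04. Mean levels of Esrra in quad were -0.05 with bezafibrate, -0.26 with rosiglitazone and -0.03 in vehicle. Those of Esrrg in soleus were 0.10, -0.02 and 0.07.

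Nr4a3 and Nr4a1, immediate early nuclear receptors that respond to exercise and adrenergic signals in muscle, were the remaining calls in soleus. Nr4a3 lay at -0.33, 0.26 and 1.56 with bezafibrate and at -1.33, -0.15 and 0.42 with rosiglitazone there. In quad Nr4a3 had -0.62, 0.10 and 1.17, against -0.45, 0.18 and 1.10. The ranges overlapped in both muscles. The difference was 0.65 ± 0.15 in soleus (adjusted p = 0.0233), from 0.01 on day 2 to 1.29 on day 3, and -0.14 ± 0.12 in quad. It was no longer called in soleus without rats 1365 and 1382, nor without day 3, 4 or 5. Nr4a1 had 0.45 ± 0.12 in soleus (adjusted p = 0.046), a call lost in 27 of the 40 fits that left out 1 array.

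Lipogenesis and glycerolipid synthesis had 21 measured genes, of which 4 were called lower with bezafibrate in each muscle and none higher, around a median difference of 0.00. Scd, stearoyl-CoA desaturase, which makes monounsaturated fatty acids, varied widely. In soleus Scd lay at -1.55, 0.01 and 1.26 with bezafibrate and at -1.18, 1.44 and 2.97 with rosiglitazone. The quad levels of Scd were -1.78, -0.97 and 1.37, against -1.22, 0.25 and 1.76. The groups overlapped in both muscles, and vehicle arrays spread from -1.82 to 1.86 in soleus. The difference was -1.39 ± 0.24 in soleus (adjusted p = 0.000573) and -0.86 ± 0.27 in quad (adjusted p = 0.0466). The 2 Scd probes were far apart, at -2.38 and -0.41 in soleus and at -1.69 and -0.04 in quad. The quad call was lost in 23 of the 35 fits that left out 1 array, and the soleus call was lost without day 5, when the difference was -2.82.

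Elovl6, an elongase of long-chain fatty acids, was lower by the same measure in both muscles (-0.50 ± 0.07 in soleus, adjusted p = 1.36e-05, and -0.47 ± 0.10 in quad, adjusted p = 0.00495). Its 4 probes ranged from -0.92 to 0.08 in soleus, so the size of the mean depended on the probe. Thrsp, a nuclear protein of lipogenic tissue, was lower in soleus at -0.91 ± 0.21 (adjusted p = 0.0145), with -2.16 on day 5 and 0.19 on day 3. In quad Thrsp had -0.58 ± 0.31 (adjusted p = 0.266). Its 2 probes gave -1.36 and -0.46 in soleus and -1.03 and -0.14 in quad. Srebf1, the transcription factor of lipogenic genes, was lower in quad at -0.31 ± 0.07 (adjusted p = 0.0103). Its 3 quad probes ran from -0.77 to 0.10 and the call was lost when the median of the probes was taken. Slc25a1, the mitochondrial citrate carrier, was lower in both muscles (-0.18 ± 0.04 and -0.12 ± 0.03). Of the 17 sterol synthesis genes, Insig1 (-0.35 ± 0.10) and Ebp (-0.25 ± 0.06) were lower in quad and none was called in soleus. The share called lower over all features was 3.99% in quad and 0.696% in soleus.

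Among the named genes higher with bezafibrate were genes of fatty acid oxidation and genes of vessels. The mean bezafibrate levels of Pdk4, Ucp3, Acot1 and Acot2 lay above vehicle in both muscles. Their mean rosiglitazone levels lay above vehicle too in both muscles, though below bezafibrate. For Ucp3 in quad the mean levels were 0.56 with bezafibrate, 0.30 with rosiglitazone and -0.07 in vehicle. The mean rosiglitazone levels of Aqp1, Prom1 and Cd34 lay below vehicle in both muscles. Of the 11 fuel switching and uncoupling genes, Pdk4 and Ucp3 were called higher in soleus and none in quad. The mean level of these genes in quad had a median of 0.17 with each compound and -0.04 in vehicle. Of 16 mitochondrial beta-oxidation genes tested in soleus 1 was called higher (Acot2), and of 20 in quad 3 were (Hadha, Acadm and Slc25a20). None was called lower. The share called higher over all features was 0.473% in soleus and 3.24% in quad. The median differences of the beta-oxidation genes were 0.11 in soleus and 0.12 in quad, and 14 of 16 and 19 of 20 were above 0.

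Pdk4 encodes the kinase that shuts pyruvate dehydrogenase and so spares glucose. In soleus its levels were 0.03, 0.70 and 1.73 with bezafibrate and -0.55, 0.16 and 0.68 with rosiglitazone. In quad Pdk4 had -0.04, 0.56 and 1.17, against -0.15, 0.29 and 1.08. Every soleus bezafibrate array was above 0, and 10 of 20 lay above every rosiglitazone array, while in quad 1 of 19 did. The difference was 0.60 ± 0.10 in soleus (adjusted p = 0.000494, 1.51-fold) and 0.29 ± 0.10 in quad (adjusted p = 0.074). By day the soleus difference ran from -0.04 on day 2 to 1.17 on day 5, and without day 5 the gene was not called (highest adjusted p over all alternatives 0.0641).

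Ucp3 in soleus lay at -0.16, 0.72 and 1.32 with bezafibrate and at -0.40, 0.17 and 0.44 with rosiglitazone. The quad levels of Ucp3 were 0.00, 0.55 and 1.13, against -0.31, 0.27 and 1.04. In soleus 13 of 20 bezafibrate arrays lay above every rosiglitazone array. The difference was 0.50 ± 0.08 in soleus (adjusted p = 0.000215, 1.41-fold) and 0.26 ± 0.08 in quad (adjusted p = 0.0509). On day 2 it was -0.14 in soleus, and from day 3 on it lay between 0.47 and 0.81. For neither gene did the test of the muscles against each other pass (Pdk4 0.30 ± 0.15, adjusted p = 0.542, and Ucp3 0.24 ± 0.12, adjusted p = 0.543). The quad miss was not firm: Ucp3 was called there in 15 of 50 alternatives and Pdk4 in 6.

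Acot1 and Acot2 encode thioesterases that release fatty acids from coenzyme A, in the cytosol and in mitochondria. They are near-identical neighbours in sequence, and a probe may read both. Acot1 had soleus levels of 0.14, 1.05 and 2.04 with bezafibrate and -1.24, 0.48 and 1.5 with rosiglitazone. In quad Acot1 had -0.39, 1.01 and 1.93, against -0.51, 0.34 and 0.87. The ranges overlapped, and single vehicle rats spread from -3.18 to 1.57 in soleus. The difference was 0.66 ± 0.16 in soleus (adjusted p = 0.0296) and 0.63 ± 0.19 in quad (adjusted p = 0.0427), and leaving out 1 array ended the soleus call in 7 fits and the quad call in 22. Whole lists also had low extremes among soleus vehicle arrays. The mean level reached -1.34 for peroxisomal genes and thioesterases (median -0.01) and -1.18 for mitochondrial beta-oxidation (median -0.02). Array spread and correlation were not computed for vehicle arrays.

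Acot2 was steadier: in soleus it lay at 0.12, 0.59 and 1.27 with bezafibrate and at -0.31, 0.21 and 0.49 with rosiglitazone. In quad Acot2 had -0.29, 0.21 and 0.75, against -0.55, 0.04 and 0.64. All 20 soleus bezafibrate arrays were above 0 and 11 of them lay above every rosiglitazone array. The difference was 0.40 ± 0.07 in soleus (adjusted p = 0.00111) and 0.24 ± 0.10 in quad (adjusted p = 0.126).

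Hadha, a subunit of the mitochondrial trifunctional protein, showed a small difference that was called in quad. Its quad levels were -0.19, 0.07 and 0.30 with bezafibrate and -0.58, -0.11 and 0.26 with rosiglitazone. In soleus Hadha had -0.08, 0.07 and 0.48, against -0.44, -0.03 and 0.30. The groups overlapped in both muscles. The difference was 0.19 ± 0.04 in quad (adjusted p = 0.00552) and 0.15 ± 0.05 in soleus (adjusted p = 0.154). Acadm, the medium-chain acyl-CoA dehydrogenase, had 0.23 ± 0.06 in quad (adjusted p = 0.0227), with 3 probes from -0.41 to 0.28. Not every probe had a value on every array, so these probe values do not average to that of the gene. Slc25a20, the carnitine-acylcarnitine carrier, had 0.13 ± 0.04 (adjusted p = 0.0211). In quad the mean levels with bezafibrate, rosiglitazone and vehicle were 0.06, -0.12 and -0.02 for Hadha, 0.03, -0.20 and -0.06 for Acadm, and -0.01, -0.14 and 0.01 for Slc25a20.

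Of the peroxisomal genes, Abcd3, a fatty acid importer of the peroxisome, was higher in quad at 0.23 ± 0.06, and Decr2, a reductase of peroxisomal oxidation, was lower at -0.14 ± 0.03. Ehhadh, a classical peroxisomal target of PPARA in liver, differed by 0.05 ± 0.13 in soleus and 0.07 ± 0.09 in quad. Of 18 oxidative phosphorylation genes tested in each muscle, 5 were called higher with bezafibrate in quad (Sdha 0.25 ± 0.06, Cyc1 0.23 ± 0.05, Ndufa9 0.18 ± 0.04, Sdhb 0.17 ± 0.04 and Cox4i1 0.16 ± 0.03) and none in soleus. All 18 differences were above 0 in both muscles, with a median of 0.15 in quad and 0.07 in soleus. The mean level of these genes in quad had a median of -0.01 with bezafibrate and -0.13 with rosiglitazone, so most of the separation lay on the rosiglitazone side. The calls of Sdha, Cyc1 and Ndufa9 were lost without the quad arrays of day 3, and the probes of Cyc1 pointed both ways (-0.52 and 0.27). Fibre type genes had differences above 0 beside these, though none was called. In quad 8 of 9 slow fibre genes were above 0 (median 0.19), and in soleus all 7 fast fibre genes tested were (median 0.15, up to 1.02). In soleus 1 of 4 slow fibre genes tested was above 0, and in quad 1 of 11 measured fast fibre genes could be tested. The mean level of the soleus fast fibre genes varied widely between arrays. It ran from -2.80 to 0.72 with bezafibrate (median -0.96) and from -3.49 to 0.68 with rosiglitazone (median -1.49). Single vehicle rats ran from -2.87 to 0.90 (median -0.26). The part of fibre composition in these results was not tested.

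**Figure D3:**
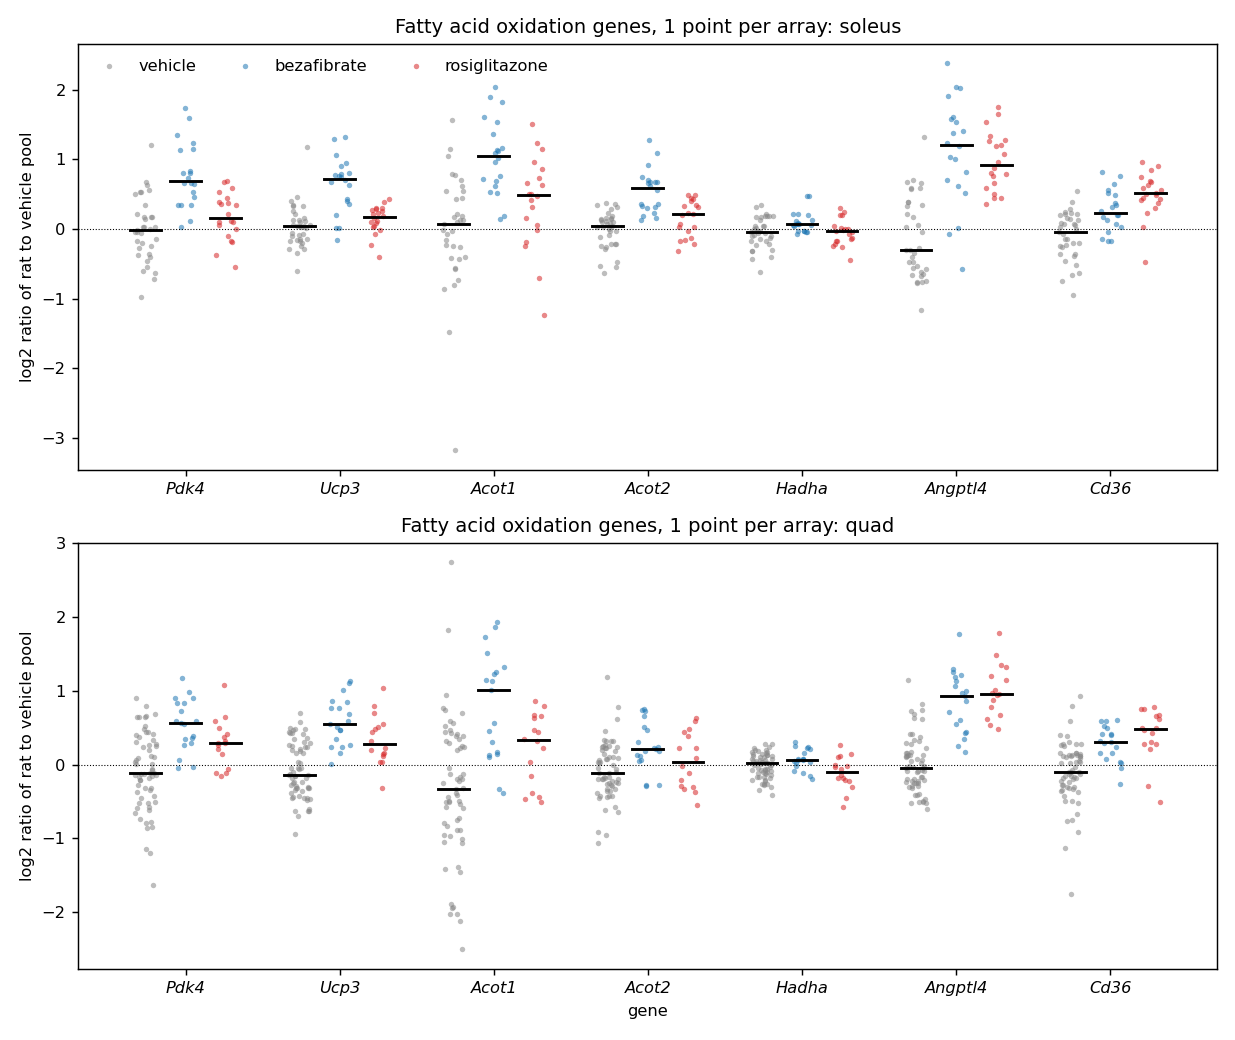
Levels (log2 ratio of a rat to the vehicle pool) of 7 genes of fatty acid use in soleus (top) and quad (bottom), 1 point per array, with the median as a bar, for vehicle (grey), bezafibrate (blue) and rosiglitazone (red). Pdk4, Ucp3, Acot1 and Acot2 have higher medians with bezafibrate in both muscles, while Angptl4 has medians between 0.92 and 1.21 with both compounds.

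Some known PPAR targets did not separate the compounds. Angptl4, a secreted inhibitor of lipoprotein lipase, had soleus levels of -0.57, 1.21 and 2.38 with bezafibrate and 0.35, 0.92 and 1.76 with rosiglitazone. In quad Angptl4 had 0.17, 0.93 and 1.77, against 0.48, 0.96 and 1.78. Both groups lay mostly above the vehicle medians of -0.30 and -0.04. The difference was 0.14 ± 0.17 in soleus (95% interval -0.19 to 0.48) and -0.12 ± 0.13 in quad (-0.39 to 0.15), so differences of up to about these bounds are not shown to be absent. Cd36, the fatty acid transporter, differed by -0.22 ± 0.09 in soleus (adjusted p = 0.281) and -0.12 ± 0.08 in quad (adjusted p = 0.401). The glucose transporter Slc2a4 had 0.12 ± 0.08 and 0.00 ± 0.05 and hexokinase Hk2 -0.05 ± 0.11 and -0.15 ± 0.08. Lpl could be tested in quad (-0.28 ± 0.14, adjusted p = 0.254), as could Cpt1b (0.02 ± 0.05). The clock gene Bmal1 had levels of 1.03 and 0.68 with bezafibrate and rosiglitazone in soleus, and its differences of 0.36 ± 0.21 there and -0.39 ± 0.24 in quad were not called.

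The vessel genes divided by direction. Of 17 endothelial markers tested in each muscle, 2 were called higher with bezafibrate and 2 lower in soleus, and 4 higher and 2 lower in quad, with median differences of 0.03 and 0.04. The higher ones were Aqp1 and Prom1 in both muscles, with Cd34 and Pecam1 (0.18 ± 0.05) in quad. The lower ones were Kdr in both muscles, with Sox17 in soleus (-0.21 ± 0.04) and Tek in quad (-0.15 ± 0.04). The mean level of the list ranged from -0.22 to 0.11 over soleus bezafibrate arrays and from -0.32 to 0.13 over rosiglitazone arrays. In quad it ranged from -0.29 to 0.12 (median -0.05) with bezafibrate and from -0.32 to 0.00 (median -0.15) with rosiglitazone, and single vehicle rats had a median of -0.01. Whether the number of endothelial cells differed was not tested.

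Aqp1, the water channel of capillary endothelium and red cells, had the largest called difference above 0 among named genes in both muscles. In soleus it lay at -1.0, -0.16 and 0.46 with bezafibrate and at -1.69, -0.97 and -0.41 with rosiglitazone. In quad Aqp1 had -0.87, -0.21 and 0.24, against -1.80, -1.48 and -0.79. The ranges overlapped a little: 15 of 16 quad rosiglitazone arrays lay below every bezafibrate array, and 15 lay below every vehicle array. The difference was 0.79 ± 0.11 in soleus (adjusted p = 3.52e-05, 1.73-fold) and 1.23 ± 0.10 in quad (adjusted p = 3.12e-09, 2.34-fold). Vehicle levels averaged -0.20 in soleus and 0.00 in quad, so Aqp1 lay low with rosiglitazone rather than high with bezafibrate. The 6 red blood cell markers had no call in either muscle, with median differences of -0.10 in soleus and 0.04 in quad.

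Prom1, a membrane protein of progenitor cells, had soleus levels of -0.35, -0.12 and 0.36 with bezafibrate and -1.17, -0.65 and -0.03 with rosiglitazone. The quad levels of Prom1 were -0.65, -0.12 and 0.28, against -1.27, -0.79 and 0.03. In soleus 16 of 20 rosiglitazone arrays lay below every bezafibrate array. The difference was 0.59 ± 0.09 in soleus (adjusted p = 0.000117) and 0.60 ± 0.10 in quad (adjusted p = 0.000645), and it was above 0 on every day in both muscles.

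Cd34 and Cd93, surface proteins of endothelial and progenitor cells, followed the same order. Cd34 differed by 0.48 ± 0.07 in quad (adjusted p = 5.32e-05) and by 0.22 ± 0.06 in soleus (adjusted p = 0.0549). It lay low with both compounds in quad, with mean levels of -0.29 and -0.77 against -0.03 in vehicle, and 7 of 19 bezafibrate arrays lay below every vehicle array. Cd93 differed by 0.39 ± 0.09 in soleus (adjusted p = 0.0172) and 0.58 ± 0.08 in quad (adjusted p = 1.42e-05). In quad 15 of 19 bezafibrate arrays lay above every rosiglitazone array for Cd93. Stmn1, a microtubule regulator of proliferating cells (0.33 ± 0.06 and 0.53 ± 0.06), Sparcl1, a matrix glycoprotein (0.28 ± 0.07 and 0.50 ± 0.07), and Gimap7, a GTPase of lymphocytes and endothelium (0.38 ± 0.07 and 0.42 ± 0.09), were also higher in soleus and quad. With rosiglitazone the mean levels of Stmn1, Sparcl1 and Gimap7 lay between -0.60 and -0.22. With bezafibrate they lay between -0.07 and 0.06, and in vehicle between -0.15 and 0.04. Sparcl1 in soleus had 0.06 with bezafibrate, -0.22 with rosiglitazone and -0.15 in vehicle, so there bezafibrate lay farther from vehicle.

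Kdr, the main VEGF receptor, went the other way. Its soleus levels were -0.20, 0.29 and 0.72 with bezafibrate and 0.34, 0.65 and 1.17 with rosiglitazone, and its quad levels were -0.26, 0.19 and 0.71, against 0.46, 0.84 and 1.26. The groups overlapped, with 11 of 16 quad rosiglitazone arrays above every bezafibrate array. The difference was -0.40 ± 0.07 in soleus (adjusted p = 0.00108) and -0.60 ± 0.07 in quad (adjusted p = 2.73e-06). Dll1, a Notch ligand named here after its values were seen, had -0.44 ± 0.07 and -0.65 ± 0.06. Adora2a, an adenosine receptor, and Car4, a carbonic anhydrase of the capillary surface, both picked in the same way, were lower too. Adora2a had -0.35 ± 0.03 and -0.29 ± 0.03, and its quad groups did not overlap. Car4 had -0.32 ± 0.06 and -0.46 ± 0.07.

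**Figure D4:**
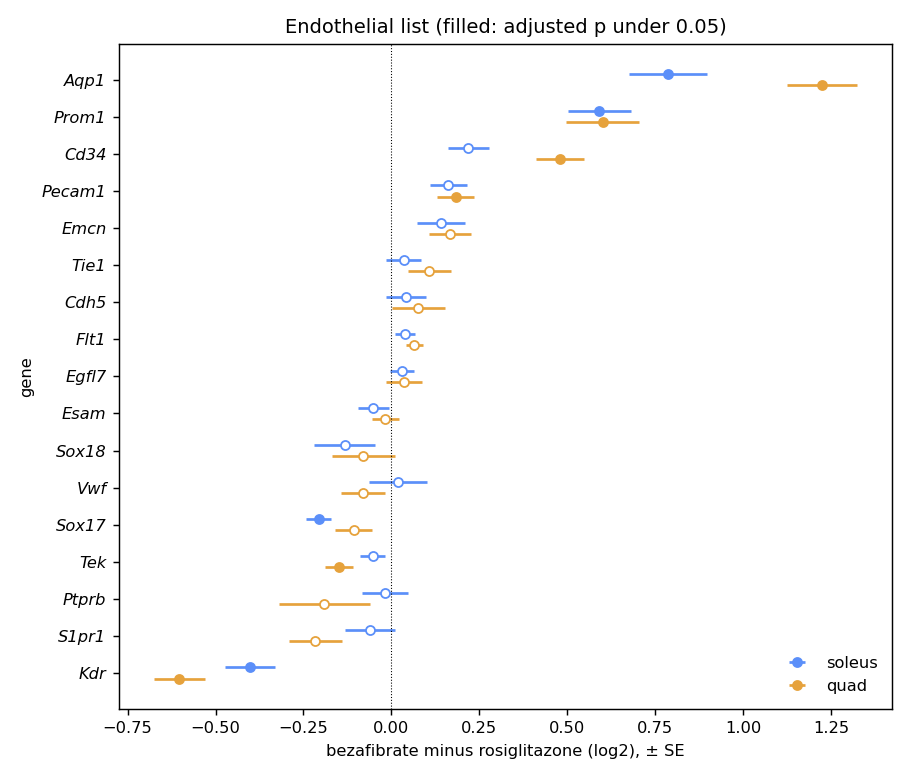
Difference between the compounds (bezafibrate minus rosiglitazone, log2) for the 17 endothelial markers, with SE bars, in soleus (blue) and quad (orange), and filled symbols where the adjusted p was under 0.05. Aqp1 and Prom1 lie to the right and Kdr to the left in both muscles, and most of the other markers lie near 0.

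Other genes with large differences had no list of their own. Slfn4, an interferon-responsive gene of myeloid cells, was lower with bezafibrate at -0.98 ± 0.19 in soleus (adjusted p = 0.00214) and -0.99 ± 0.21 in quad (adjusted p = 0.00429). On day 5 its difference was -2.18 and -2.48, and both calls were lost without that day. Gbp4, an interferon-induced GTPase, had -0.73 ± 0.16 in quad (adjusted p = 0.00713), also lost without day 5. Dlg2, a scaffold protein of synapses, had -0.91 ± 0.20 in soleus (adjusted p = 0.0112) and -0.47 ± 0.15 in quad (adjusted p = 0.048), and the quad call was lost in 29 of the 35 fits that left out 1 array. Sgk1, a kinase induced by glucocorticoids and insulin, was lower in quad at -0.72 ± 0.15 (adjusted p = 0.00467), where bezafibrate arrays averaged -0.49 and rosiglitazone arrays 0.24. Hmox1, heme oxygenase, was lower in quad at -0.32 ± 0.05. Mean levels of Slfn4 with bezafibrate, rosiglitazone and vehicle were 0.05, 1.03 and -0.29 in soleus and -0.07, 0.92 and -0.16 in quad. In the same order, Dlg2 had -0.09, 0.83 and -0.08 in soleus. In quad Gbp4 had 0.09, 0.81 and -0.06 and Hmox1 -0.04, 0.27 and 0.01. For these genes rosiglitazone lay above vehicle, and bezafibrate lay nearer to vehicle than to rosiglitazone. Sgk1 averaged -0.04 in quad vehicle arrays.

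Grm4, a glutamate receptor, had quad levels of -1.26, -0.19 and 0.99 with bezafibrate and -2.90, -1.20 and 0.09 with rosiglitazone. In soleus Grm4 had -1.84, 0.14 and 0.81, against -3.69, -0.77 and 0.32. The groups overlapped in both muscles. The difference was 1.07 ± 0.21 in quad (adjusted p = 0.00283), lost without day 3, and 1.04 ± 0.28 in soleus (adjusted p = 0.0518). Lim2, a lens membrane protein, was higher in soleus at 0.54 ± 0.10 (adjusted p = 0.00203). In quad the glycogen phosphorylase Pygm (0.20 ± 0.04), the kinase Pfkfb1 (0.23 ± 0.05) and the insulin receptor adaptor Grb10 (0.23 ± 0.07) were higher. Mean quad levels with bezafibrate, rosiglitazone and vehicle were -0.03, -0.27 and 0.01 for Pfkfb1 and 0.02, -0.21 and -0.05 for Grb10. In the same order they were 0.01, -0.19 and -0.12 for Pygm and -0.08, -1.14 and -0.11 for Grm4. Lim2 in soleus had -0.15, -0.69 and 0.03. The call of Pygm was lost without day 3, with a lowest value of 0.02. No clock, atrophy, fibroblast, fibre type, hepatocyte or nerve gene of the lists was called in either muscle. The share over all features was 1.17% in soleus and 7.23% in quad.

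**Figure D5:**
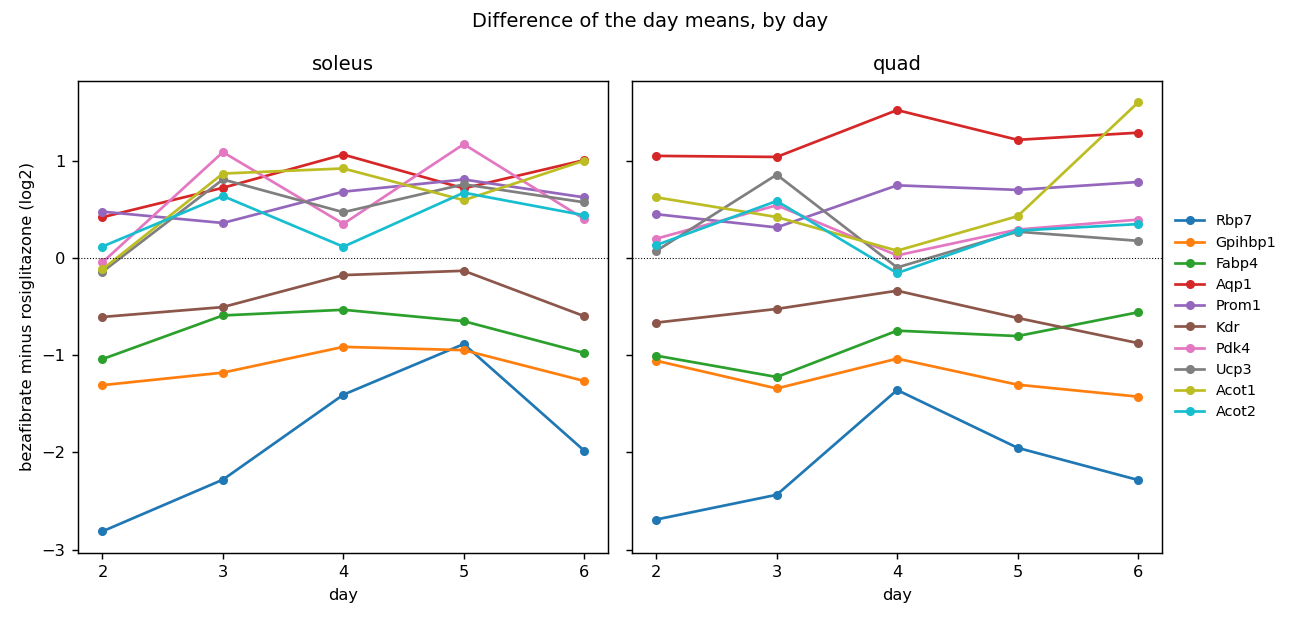
Difference between the day means of the compounds (bezafibrate minus rosiglitazone, log2) on days 2 to 6 in soleus (left) and quad (right), 1 line per gene. Rbp7, Gpihbp1, Fabp4 and Kdr stay below 0 and Aqp1 and Prom1 above 0 on every day, whereas Pdk4, Ucp3 and Acot1 lie at or below 0 in soleus on day 2 and above it on the later days.

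The muscles were then set against each other. The difference of the differences (soleus minus quad) was called for 17 of 18346 features, 0.0927%, of which 9 were higher in soleus (0.0491%) and 8 lower (0.0436%), and 6 had a gene name. The named ones were Nudt8 (0.44 ± 0.07), Egln3 (0.64 ± 0.12), Olfml1 (0.36 ± 0.07), Tada2b (0.28 ± 0.06), Capzb (-0.22 ± 0.04) and Rab5if (-0.22 ± 0.05). Leaving out 1 of the 75 arrays ended the call of Tada2b in 42 fits and of Rab5if in 29, and all of Egln3, Olfml1, Capzb, Tada2b and Rab5if lost theirs without day 3, 4 or 5, as well as in both fits over the 27 rats with both muscles. Without day 3 limma called 0 features. With the rat as a block the fit within 27 rats called 1, and a random block called 100. Egln3, an oxygen-sensing prolyl hydroxylase, had 0.38 ± 0.07 in soleus, which was called, and -0.25 ± 0.10 in quad, which was not. Olfml1, a secreted olfactomedin protein, had 0.12 ± 0.05 in soleus, which was not called, and -0.24 ± 0.05 in quad, which was. Nudt8, a mitochondrial nudix hydrolase, rested on quad day 3: its rosiglitazone arrays lay between 2.32 and 2.56 on that day and the bezafibrate arrays between -0.11 and 0.03, and 9 of the 63 vehicle arrays of quad were above 1 too. For the genes that led the comparison the muscles did not pass this test: 0.27 ± 0.20 for Rbp7 (adjusted p = 0.766), 0.11 ± 0.10 for Gpihbp1 (adjusted p = 0.836) and -0.44 ± 0.16 for Aqp1 (adjusted p = 0.305).

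In the muscle called EDL in the labels, bezafibrate was given at 25 mkd and rosiglitazone at 10 mkd, with 9 arrays each on days 4 to 6. EDL also had 4 arrays of rosiglitazone at 100 mkd on day 4, which were not used here because no bezafibrate array at 250 mkd stood beside them. At the lower doses 14 of 18603 features were called, 0.0753%, of which 1 was higher (0.00538%) and 13 were lower with bezafibrate (0.0699%). Rbp7 had -3.47 ± 0.23 (limma adjusted p = 2.54e-06), with mean levels of 0.39 and 3.86. Gpihbp1 had -1.44 ± 0.14, Fabp4 -1.28 ± 0.09, Fabp5 -0.90 ± 0.15 and Mgll -0.70 ± 0.07, all called, though Fabp5 lost its call in 14 of the 18 fits that left out 1 array. Pdk4 (-0.09 ± 0.23), Ucp3 (-0.12 ± 0.20) and Acot2 (0.01 ± 0.14) were not. These values stand beside those of soleus and quad without a comparison, since doses and days differed.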

How the data were processed

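RNA of soleus, quad and EDL muscle was measured on 2-colour arrays, with 1 rat in Cy5 and a vehicle pool in Cy3, per the labels. The values are those deposited by the authors, log10 ratios of 23653 probes on 484 arrays. Their scale and direction are not given in the sources used here and were inferred: values centre on 0 and stop at -2 and 2, and ratios were read as rat over pool. If the base were another, all differences would scale together. They were multiplied by 3.32 to log2. Of the values 0.907% were missing. Array medians over the table lay between -0.102 and 0.0509 (log10). With no spot intensities in use, precision rests on how many arrays a group had.

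Probes were named from the platform annotation and RefSeq gene identifiers: 15260 named 1 gene, 17 several and 8376 none. Probes of a gene were averaged, giving 18603 features, 10210 of them genes. On each array the average took the probes that had a value there, so it can rest on different probes on different arrays. Acadm and Cyc1 in quad are such genes. Of 79 pairs of a named multi-probe gene and a muscle, 18 had probes in both directions. Per muscle, features with values on at least 80% of arrays were fitted with limma 3.58.1 (R 4.3.3, statmod 1.5.0) with 1 mean per compound and day. The contrast averaged the daily differences equally. Tests were two-sided and adjusted by Benjamini-Hochberg. EDL and soleus minus quad were fitted likewise. Tables and plots were made with pandas 2.3.3, numpy 2.4.6 and matplotlib 3.10.9 under Python 3.11.15. The procedure was tested on simulated data.

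Members, lists and tests were chosen with earlier results of these data known. Named genes were, per muscle, the 8 largest differences each way among named genes called with 1 sign on all days, 5 each way for soleus minus quad, up to 4 called members of each list, and a fixed set. Called members of a list beyond these are named where a count is small. Array by array values cover the 3 largest each way and called genes of the fixed set, with a few genes that the text says were chosen later, and Mgll, Kdr and Angptl4. Rat numbers pair the muscles: deviations from group means correlated at a median of 0.259 over 31 rats (-0.258 to 0.401, 26 above 0.1), against -0.068 for other rats of the same group. Alternatives were centring, scaling, array weights, missing-value filters, probe medians, a trended variance, a fit with all arrays of a muscle, arrays weighted equally, leaving out each day or array, and rat as a block. Leaving out soleus rats 1365 and 1382 was added after seeing the data.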

Additional observations from a re-analysis of the deposited data

Results flagged for a closer look

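The test of the muscles against each other (soleus minus quad of the bezafibrate minus rosiglitazone difference, limma adjusted p under 0.05) passed for 6 named genes. The value was 0.44 for Nudt8, 0.64 for Egln3, 0.36 for Olfml1, 0.28 for Tada2b, -0.22 for Capzb and -0.22 for Rab5if. For Nudt8 the quad difference was -2.48 on day 3 and between -0.09 and 0.10 on the other days. All 4 quad rosiglitazone arrays of day 3, which carry no rat number, were above 1, as were 3 of the 8 vehicle arrays of that day and 9 of 63 quad vehicle arrays in all. In quad, Capzb differed by 0.51 on day 3 and by 0.01 to 0.15 on the others. Egln3 differed by 0.72 in soleus and 0.03 in quad on day 3.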

How the results depend on the processing

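The count of calls in soleus (215) was 96 with all arrays of the muscle in the fit, 134 without day 4 and 102 without day 5, and leaving out 1 array gave 180 to 239. In quad (1331) it was 2003 with array weights, 333 with all arrays in the fit, 602 without day 3, 750 without day 4, 507 without day 5 and 757 with rat 1256 kept. Leaving out 1 quad array gave 638 (rosiglitazone rat 1383) to 2027 (rosiglitazone array 1 of day 3), and 832 without rosiglitazone rat 1367. For soleus minus quad (17) it was 45 with array medians subtracted, 4 with arrays scaled to one spread, 83 with array weights, 1 with all arrays in the fit, 118 without day 2, 0 without day 3 (by limma), 1 without day 4, 1 without day 5 and 113 without day 6, and 4 to 52 without 1 array. Of the 17, 52.9% were higher in soleus, against 37.8% with medians subtracted and 75% with scaling. In EDL (14) it was 67 with array weights, 37 with all arrays in the fit, 4 without day 4, 4 without day 5 and 3 without day 6, and 6 to 21 without 1 array. With rat as a replicate block, soleus minus quad gave 1 call within the 27 rats that have both muscles on days 2, 4, 5 and 6, 0 in the same rats without the block, and 100 with a random block (correlation 0.154). The value of Nudt8 turned to -0.0289 without day 3, and to -0.138 in the 27 rats both with the block and without it. The cause of these shifts was not tested.

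Rbp7, Gpihbp1, Fabp4, Fabp5, Mgll, Kdr, Aqp1, Prom1 and Gimap7 were called in soleus and in quad under every alternative run there. So were Elovl6, Acot2 and Ucp3 in soleus and Pparg, Aqp7, Cd34, Cd93, Stmn1, Sparcl1, Sgk1 and Hmox1 in quad.

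Leaving out some single day ended the soleus calls of Pdk4, Acot1, Pparg, Scd, Slfn4, Nr4a1, Nr4a3, Cd93, Stmn1, Sparcl1, Esrrg, Dlg2, Thrsp and Egln3. In quad it ended those of Acot1, Scd, Srebf1, Dlg2, Slfn4, Gbp4, Grm4, Pygm, Nudt8, Cyc1, Ndufa9, Sdha, Hadha, Acadm, Slc25a20, Abcd3, Decr2, Esrra, Elovl6, Lipe, Insig1, Ebp, Grb10, Pfkfb1, Nr1h3, Capzb, Tada2b and Cox4i1. Leaving out 1 array ended the call in 3 fits for Sparcl1 in soleus, and in quad in 5 for Grb10, 4 for Tada2b, 3 for Abcd3, 2 each for Acadm, Esrra, Insig1 and Slc25a20, and 1 each for Sdha, Lipe and Decr2.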

Other observations

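The genes below were picked after their values were seen, and no list or test stands behind them as a group. Irf7, a transcription factor of the interferon response, had -0.65 ± 0.16 in soleus (limma adjusted p = 0.0294) and -0.79 ± 0.16 in quad (adjusted p = 0.00238). Its daily differences were 0.20 and 0.14 on day 3 and -1.66 and -1.88 on day 5. Rtp4 had -0.71 ± 0.17 in quad (adjusted p = 0.00978) and -0.63 ± 0.19 in soleus (adjusted p = 0.121). Ubd, a ubiquitin-like protein induced by interferon gamma, had -1.09 ± 0.24 in soleus (adjusted p = 0.0108), with 0.24 on day 4 and -3.08 on day 5. The difference of Ubd in quad was -0.95 ± 0.42 (adjusted p = 0.171).

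Tfrc, the transferrin receptor, was higher with bezafibrate in both muscles (0.51 ± 0.11 in soleus, adjusted p = 0.0103, and 0.46 ± 0.11 in quad, adjusted p = 0.0103). Its mean level with rosiglitazone was -0.27 in soleus and -0.41 in quad. Aqp3, a water and glycerol channel, was lower with bezafibrate (-0.49 ± 0.09 in soleus and -0.68 ± 0.08 in quad), with its widest quad difference, -1.08, on day 6. In quad, Cyp26b1, which degrades retinoic acid, was higher at 0.43 ± 0.11 (adjusted p = 0.0164), and had 0.29 ± 0.10 in soleus (adjusted p = 0.202).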
